A study of Mus musculus with 4 samples.

Results

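The members were 10 mouse genes that form 5 pairs, each of a host gene and a gene that lies inside one of its introns. The intronic genes are *Mcts2* in *H13*, *Nap1l5* in *Herc3*, *Zrsr1* in *Commd1*, *Nnat* in *Blcap* and *Peg13* in *Trappc9*. Members were taken by symbol from the deposited table of transcripts, whatever their values. Of the 10 genes, 8 were listed, with 17 transcripts among the 34200 transcripts of 21945 genes in the table. *Nap1l5* and *Nnat* were not listed, so 3 of the 5 pairs had a value for both genes.

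NIH/3T3 cells, an immortalised line of mouse fibroblasts, were transfected with siRNAs and collected after 48 h. In the knockdown (KD) group, 2 siRNAs against *Setd2*, the gene of the methyltransferase that places H3K36me3 over transcribed genes, were given together. The control group, labelled wild type (WT), received a Scrambled siRNA, so that every cell sample had been transfected, and the siRNA concentration was 10 nM in both groups. Polyadenylated RNA was sequenced from 2 KD and 2 WT samples of 1 cell line. Transfections were repeated, but which of them each library came from is not given in the sources used here. A knockdown lowers the RNA of its target without removing the gene, so the KD cells are not a null model.

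Imprinted genes are transcribed from the copy inherited from one parent, and DNA methylation that was set in the germline at a control region marks one of the 2 copies. *Mcts2*, *Nap1l5* and *Zrsr1* are retrogenes, that is, copies of a spliced messenger RNA that were inserted into the genome, and they are expressed from the paternal copy. *Nnat* and *Peg13* are also paternally expressed, but *Nnat* has introns of its own and *Peg13* is a non-coding RNA, so neither is a retrogene in structure. Where transcription of an intronic gene is active, transcripts of the host gene can be cleaved and polyadenylated upstream of it, for which *H13* and *Herc3* are known cases. The parental copies cannot be told apart in the values used here.

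*Mcts2* is a single-exon gene on chromosome 2 (152687035 to 152687946, plus strand, GRCm38), inside intron 4 of the long *H13* transcripts (152686187 to 152688662, same strand). Its parent is *Mcts1* on the X chromosome, which encodes a factor that helps ribosomes restart and release. The coding sequences of the copy and its parent are both 546 bases long and were identical at 465 positions (85.2%), with 81 differences and no gaps. The stretch from base 339 to base 458 of each coding sequence is shown because no other stretch of its length held more differences. It shows how the reads of copy and parent can be told apart, but is not typical of the whole sequence. Its 25 differences are in capitals.
Mcts2 coding: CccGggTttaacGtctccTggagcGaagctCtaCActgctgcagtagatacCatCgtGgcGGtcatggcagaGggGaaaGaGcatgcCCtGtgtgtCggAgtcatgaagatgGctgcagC
Mcts1 coding: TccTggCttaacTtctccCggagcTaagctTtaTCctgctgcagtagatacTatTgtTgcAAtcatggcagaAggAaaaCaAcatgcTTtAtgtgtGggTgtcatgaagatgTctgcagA
Of the 882 words of 31 bases in *Mcts2*, 827 (93.8%) occurred in no transcript of another gene, and none was shared with *Mcts1*. The remaining 55 were shared with the gene model Gm8328, so some reads could be split between those 2 genes. *Zrsr1* and its X-linked parent *Zrsr2*, which encodes a splicing factor for minor introns, were more different, with 1025 identical and 257 different bases (80.0% of the bases aligned without a gap). In *Zrsr1*, 99.5% of words occurred in no other gene, and in *Peg13* 100%.

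Polyadenylation is usually directed by a hexamer, AATAAA or ATTAAA, a short way upstream of the cleavage site. The last 30 bases of the 4 host transcripts that end upstream of an intronic gene are shown, because these transcripts were grouped by where they end. They are followed by the ends of *Mcts2*, *Peg13* and the main *H13* transcript, with the hexamer in capitals.
H13-203: tctttgccgAATAAAtaattattggatttt
Herc3-201: cATTAAAaatgtttccttgagtcaaactct
Trappc9-205: AATAAAgacttattaacttcttcctgtcca
Trappc9-203: tgaggcaATTAAAttagaaggccataaagc
Mcts2-201: tgAATAAAttcaacaaatacctttaaaaaa
Peg13-201: taAATAAAtgttgcaagtgtgcctcctgaa
H13-202: catcccatggccgctaggccaccgtgctcc
Each of the 4 upstream ends held a hexamer, as did those of *Mcts2* and *Peg13*. Of the 10 host transcripts that run past the intronic gene, 6 held a hexamer and 4 (H13-202, H13-204, Commd1-204 and Trappc9-204) held none. Among the 33720 transcripts of the table that were found in the annotation, 53.7% held one of these hexamers on the transcript strand in their last 30 bases. A match describes the letters and is not a measured cleavage site.

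H13-203 has 4 exons and ends 334 bases before *Mcts2* begins. Its last exon of 604 bases has 515 bases in the intron that holds *Mcts2*. Herc3-201 ends 1152 bases from *Nap1l5*, and its last exon of 838 bases lies wholly in intron 22 of the long transcript. Trappc9-203 ends 41845 bases and Trappc9-205 183483 bases upstream of *Peg13*. Of these 2, Trappc9-203 has its last exon of 345 bases in the intron that holds *Peg13*, whereas the last exon of Trappc9-205 lies outside it. The remaining 10 listed host transcripts ran past the intronic gene. Other annotated host transcripts that end upstream were not listed and have no level. Shares of upstream ends therefore cover listed transcripts only.

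**Figure D1:**
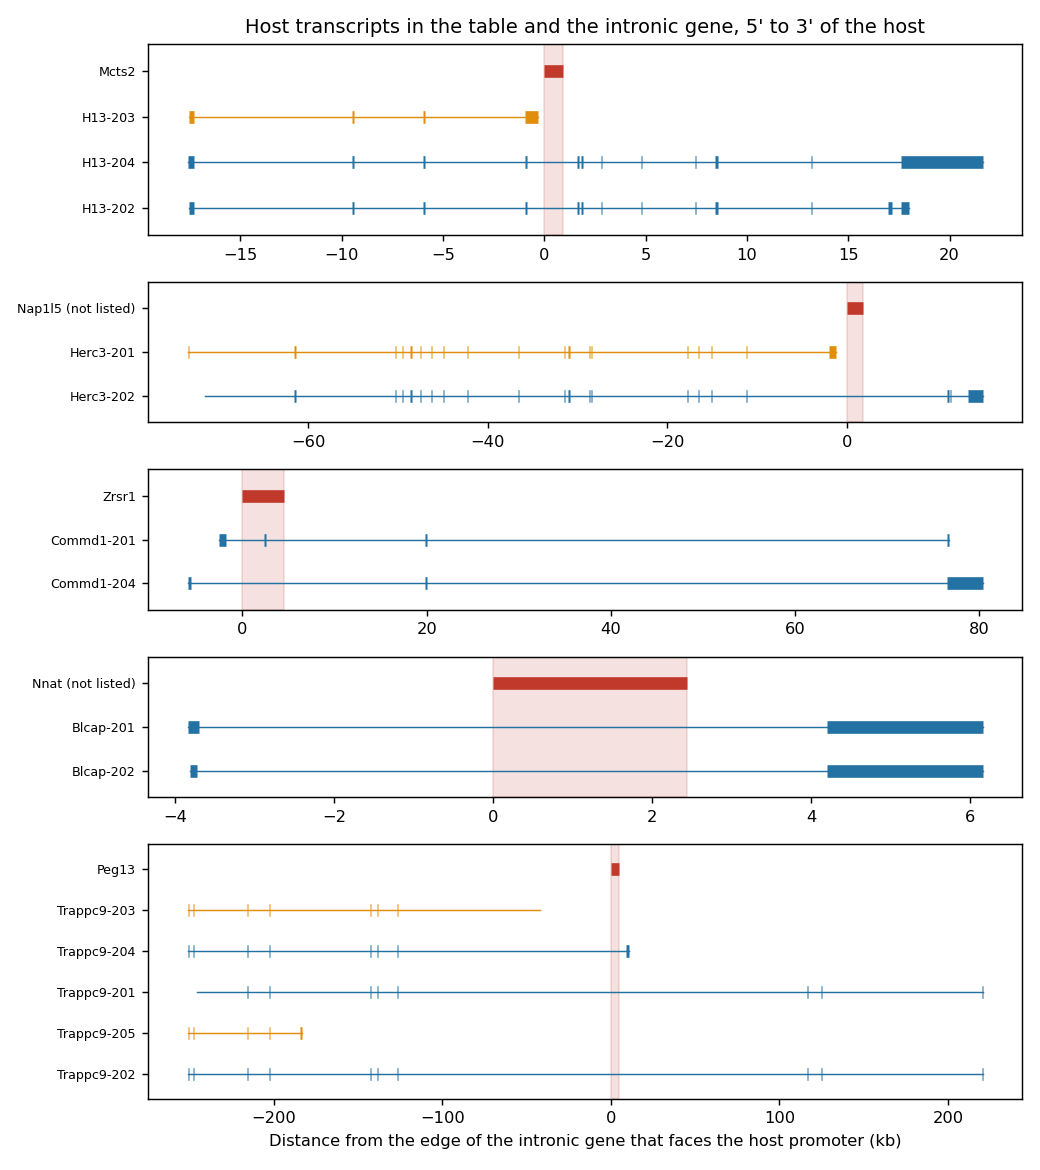
Map of the host transcripts and intronic genes of each pair, drawn to the scale of its own panel along the host gene from 5′ to 3′, with exons as boxes and introns as lines. H13-203 and Herc3-201 end close before the intronic gene (334 and 1152 bases), whereas both *Commd1* and both *Blcap* transcripts run past it.

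Levels were read from the authors' mean over the 4 libraries, as normalised estimated counts, and are given as such for single transcripts. For comparisons between genes and for shares of a gene they were divided by transcript length (level per kilobase). The depth of the libraries is unknown from these values, and no value of a single library was used. With 2 libraries in each group, however, the authors' variance over the 4 libraries sets an upper limit to the distance between the KD and WT means, whichever is higher, because the distance takes its largest value when all of the variance lies between the groups. This limit is not a measured change and carries no direction. The same variance bounds the mean of each group and each single library. No p-value is given, since no test between the groups was made.

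*Setd2* itself, the targeted gene, had a level of 1844 normalised estimated counts, and the variance allowed a distance of up to 2.00 on the log2 scale (3.99-fold) between KD and WT. Which group was lower was not examined, so this value does not check the labels. The median limit among transcripts of like level was 0.31, and 99.6% of them had a lower variance than *Setd2*. All 6 fibroblast markers were listed, at 570 to 68589 per kilobase, while 2 of 6 neural markers were listed, at 1.62 and 31.9 per kilobase. Of the epithelial markers, 2 of 4 were listed, at 11.5 and 25.4 per kilobase. Blood markers were listed for 2 of 3 genes, with *Ptprc* at 6.40 and *Cd68*, a gene of macrophages that other cells also transcribe, at 287 per kilobase.

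Among the members, summed over transcripts, *Blcap* had the highest level per kilobase (1493), followed by *H13* (1404), *Mcts2* (1293) and *Commd1* (1193). These 4 genes were above 82.8% or more of all genes with a level per kilobase. *Trappc9* followed at 315, and *Zrsr1* (90.9), *Herc3* (85.8) and *Peg13* (40.8) were the lowest, below the median gene of the table. Whether neighbours in this order differ was not tested. *Mcts2* was 0.921 times its host gene per kilobase, and 0.390 times when levels were not divided by length. The ratio was 1.04 with 200 bases taken off each length and 1.26 with the highest transcript of each gene alone, so the order of *H13* and *Mcts2* turned with these settings. In the other pairs with both genes listed the host was higher in each of these settings, per kilobase by 13.1 times for *Commd1* over *Zrsr1* and by 7.71 times for *Trappc9* over *Peg13*.

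**Figure D2:**
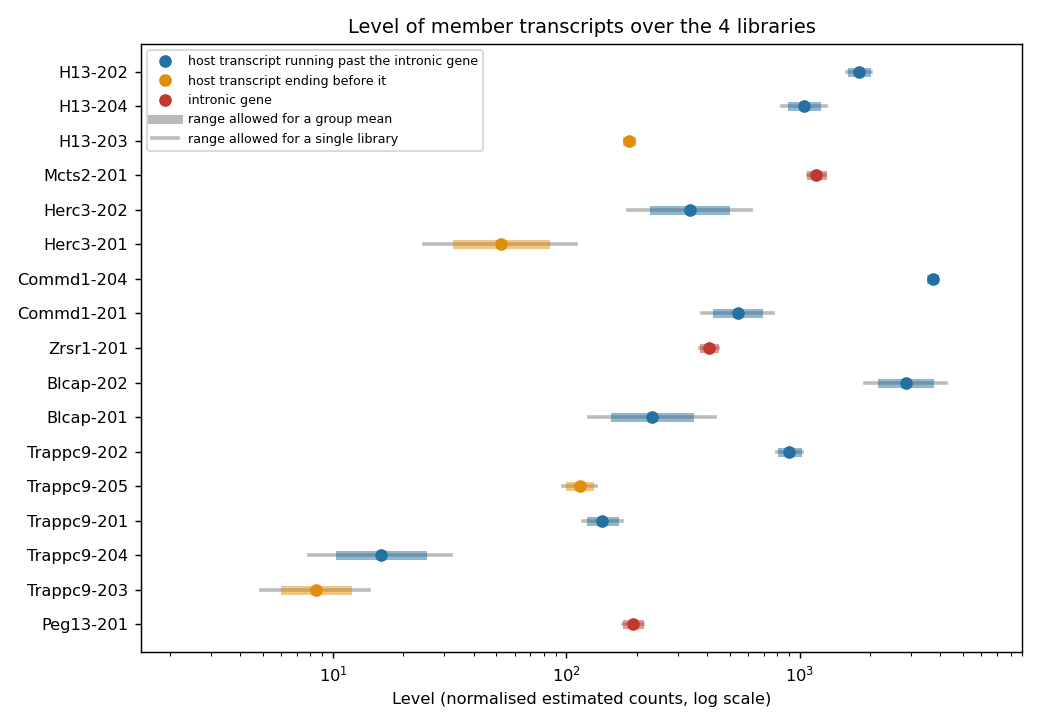
Level of each member transcript (normalised estimated counts, log axis), as the authors' mean over the 4 libraries. Thick bars give the range in which the mean of a group must lie given the variance, and thin bars that of a single library. Mcts2-201 (1179) lies below H13-202 (1794) and Blcap-202 (2843), and Trappc9-203 (8.43) is the lowest.

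*H13* encodes signal peptide peptidase, a protease of the endoplasmic reticulum membrane. Its transcript H13-202 had a level of 1794 normalised estimated counts, with each group mean between 1674 and 1924. H13-204, which ends further downstream, had a level of 1043, with each group mean between 922 and 1179. Per kilobase, H13-202 made up 73.3% and H13-204 14.3% of *H13* (59.4% and 34.5% when levels were not divided by length). Most RNA of the listed *H13* transcripts thus ran past *Mcts2*.

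The short transcript H13-203 had a level of 185 normalised estimated counts, or 174 per kilobase, which was 12.4% of *H13* (6.12% when levels were not divided by length). Its group means lay between 181 and 189, and any single library lay between 179 and 192. The KD and WT means therefore differed by at most 0.058 on the log2 scale (1.04-fold) for this transcript. Among 3987 transcripts of like level, 0.176% had a lower variance. The variance over libraries of H13-203 (0.00053 on the natural log scale) was also below the part that the authors attributed to read assignment (0.0093), so that the libraries lay closer together than that uncertainty. Of its words of 31 bases, 515 (49.9%) occurred in no other transcript of the table. Among the listed transcripts, reads from the stretch inside the intron could thus be assigned to H13-203 alone. This holds whatever *H13* RNA with that stretch they came from, unspliced RNA included.

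*Mcts2* had a level of 1179 normalised estimated counts, with each group mean between 1122 and 1239 and any single library between 1082 and 1285. The largest distance between KD and WT was 0.14 on the log2 scale (1.10-fold), and 12.6% of transcripts of like level had a lower variance. As *Mcts2* lies in an *H13* intron on the same strand, its level may include unspliced *H13* RNA, which was not tested. The ratio of H13-203 to H13-202, which sets the short against the main full-length transcript, could differ between KD and WT by at most 0.26 on the log2 scale (1.20-fold). The limit was 0.41 for H13-203 over H13-204, 0.34 for *Mcts2* over H13-202 and 0.20 for *Mcts2* over H13-203. In these 4 libraries, the estimated levels thus allowed no shift between H13-203 and either listed downstream end of *H13* beyond 1.33-fold. H13-206, another annotated *H13* transcript that ends before *Mcts2*, was not listed, so no limit covers it.

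*Herc3*, a gene of the HERC family of ubiquitin ligases, lies on chromosome 6 (58831465 to 58920398, plus strand), and *Nap1l5*, a gene of the nucleosome assembly protein family, lies on the opposite strand in its intron 22 (58905233 to 58907076). The full-length Herc3-202 had a level of 337 normalised estimated counts, with each group mean between 238 and 478. The short Herc3-201 had a level of 52.3, with each group mean between 33.9 and 80.5. Per kilobase the levels were 71.2 and 14.5. Herc3-201 made up 16.9% of *Herc3* per kilobase, the highest share of listed upstream ends in any of the 5 host genes. Of 10 annotated *Herc3* transcripts that end before *Nap1l5*, only this 1 was listed, so that order depends on the listing. The 2 listed *Herc3* transcripts also start at different sites (58831861 for Herc3-201 and 58833700 for Herc3-202). Their shares and ratio therefore reflect the start as well as the end. The limits were wide, at 1.01 on the log2 scale for Herc3-202 and 1.24 for Herc3-201, and 89.8% and 85.8% of transcripts of like level had a lower variance. Their ratio could differ between KD and WT by up to 2.24 on the log2 scale (4.73-fold). These values thus leave room for a shift in *Herc3* ends that those of the listed *H13* transcripts do not.

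*Commd1*, whose product acts in copper handling and NF-kappaB control, lies on chromosome 11 (22896136 to 22982382, minus strand), with *Zrsr1* on the opposite strand (22972005 to 22976496). Commd1-204 had a level of 3705 normalised estimated counts (822 per kilobase) and the lowest limit of the 17, 0.047 on the log2 scale (1.03-fold). Its group means lay between 3646 and 3766. Among transcripts of like level, 0.577% had a lower variance. The second transcript, Commd1-201, had a level of 541, with each group mean between 443 and 661 and a limit of 0.58. It made up 31.1% of *Commd1* per kilobase (12.7% when levels were not divided by length). The 2 transcripts start at different sites (22978996 for Commd1-201 and 22982382 for Commd1-204), so their shares reflect the start as well. No listed *Commd1* transcript ended before *Zrsr1*, and none is annotated to do so.

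*Zrsr1*, an intronless relative of the U2 auxiliary splicing factor genes, had a level of 408 normalised estimated counts, with each group mean between 388 and 430. The limit was 0.15 on the log2 scale (1.11-fold), and 6.14% of transcripts of like level had a lower variance. Its ratio to Commd1-204 could differ by at most 0.19 (1.14-fold). Commd1-201 shares 203 exon bases with *Zrsr1* on the opposite strand. The libraries were stranded, but whether strand was used in quantification is not given in the sources used here, so reads from those bases may be split between the 2 genes. Words shared with the gene model Gm28048 made up most of those in *Commd1* that were not particular to the gene, which left 94.0% of words for Commd1-204 and 82.2% for Commd1-201.

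*Blcap*, a gene named for its lower expression in bladder cancer, lies on chromosome 2 (157556362 to 157571274, minus strand), and *Nnat*, which encodes the membrane proteolipid neuronatin of brain and endocrine cells, lies in its intron 1 on the opposite strand (157560078 to 157562522). Blcap-202 had a level of 2843 normalised estimated counts, with each group mean between 2254 and 3585 and a limit of 0.67 on the log2 scale (1.59-fold). Of the transcripts of like level, 90.3% had a lower variance. Blcap-201 had a level of 233, with each group mean between 162 and 334 and a limit of 1.04. The 2 transcripts differ in their first exon, and 1.38% and 3.85% of their words occurred in no other transcript of the table. Their division (92.6% and 7.39% per kilobase) therefore rests on few bases. In addition, 113 words of each were shared with the gene model Gm3852.

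*Trappc9*, which encodes a subunit of the TRAPP II vesicle tethering complex, lies on chromosome 15 (72589620 to 73061204, minus strand), with *Peg13* on the same strand (72805600 to 72810324). Trappc9-202 had a level of 903 normalised estimated counts, with each group mean between 842 and 968 and a limit of 0.20 on the log2 scale. It made up 70.9% of *Trappc9* per kilobase, although it has no word of 31 bases of its own. Trappc9-201 had a level of 142 (group means between 127 and 159), and Trappc9-205, the shortest, 114 (between 103 and 125). The transcripts that end before *Peg13* made up 14.3% of *Trappc9* per kilobase, of which Trappc9-205 gave 13.5% and Trappc9-203 0.857%.

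Trappc9-204 ran past *Peg13* by 6076 bases and had a level of 16.0, while Trappc9-203 had a level of 8.43. At these low levels the limits were wide (1.13 and 0.83 on the log2 scale). For both transcripts the variance from read assignment exceeded the variance over libraries, but this was not confined to low levels. *Peg13* had a level of 193 normalised estimated counts, with each group mean between 182 and 204 and a limit of 0.17 (1.12-fold). Its ratio to Trappc9-202 could differ by at most 0.37 and its ratio to Trappc9-205 by at most 0.44. *Peg13* lies in a *Trappc9* intron on the same strand, so its level may likewise include unspliced host RNA, which was not tested. For *Peg13*, too, the variance from read assignment (0.0053 on the natural log scale) exceeded that over libraries (0.0046). The same held for every listed *Trappc9* transcript except Trappc9-202. It held for 6 of the 17 member transcripts in all, compared with 27.7% of all transcripts of the table. Of the neighbours in the same imprinted region, *Chrac1*, a subunit of chromatin remodelling complexes, had a level of 1488 per kilobase with a limit of 0.27. *Ago2*, the slicing Argonaute, had 495 per kilobase with a limit of 0.41, and *Kcnk9*, a potassium channel gene that is maternally expressed in brain, had 0.413 per kilobase.

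**Figure D3:**
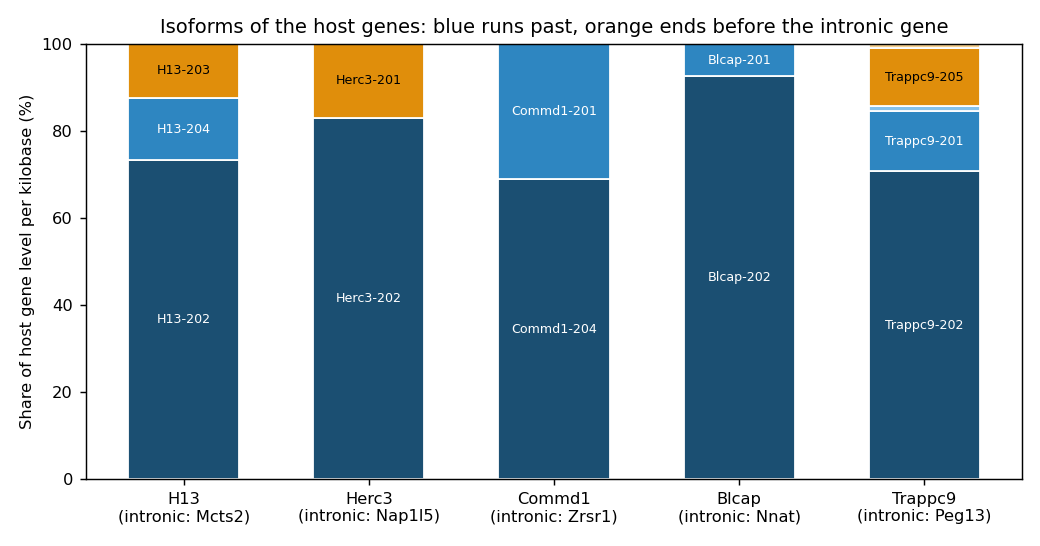
Share of each listed transcript in the level per kilobase of its host gene, in percent, coloured by whether it ends before the intronic gene or runs past it. Among listed transcripts, upstream ends hold 12.4% of *H13*, 16.9% of *Herc3* and 14.3% of *Trappc9*, and 0 of *Commd1* and *Blcap*. No annotated *Commd1* transcript ends before *Zrsr1*, and the 2 annotated *Blcap* transcripts that end before *Nnat* were not listed. The 0 of these genes thus follows from which transcripts are listed and is not a measurement.

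Over the 17 member transcripts the median limit was 0.32 on the log2 scale, against 0.54 over all transcripts of the table, where the 10th and 90th percentiles were 0.18 and 1.67. A limit under 0.5 was found for 10 of 17 members (58.8%), compared with 46.4% of all transcripts. A limit of 1 or more was found for 4 of 17, namely both *Herc3* transcripts, Blcap-201 and Trappc9-204, compared with 22.8% of all transcripts. The variance was below the median of transcripts of like level for 10 of 17. The 3 intronic genes had limits between 0.14 and 0.17, whereas host transcripts ranged from 0.047 to 1.24. Both host genes whose intronic partner was not listed, *Herc3* and *Blcap*, had limits of 0.67 or more for each transcript. The members are few and several share a gene, and these counts were not tested. In bulk RNA, fewer expressing cells and less RNA per cell cannot be told apart.

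**Figure D4:**
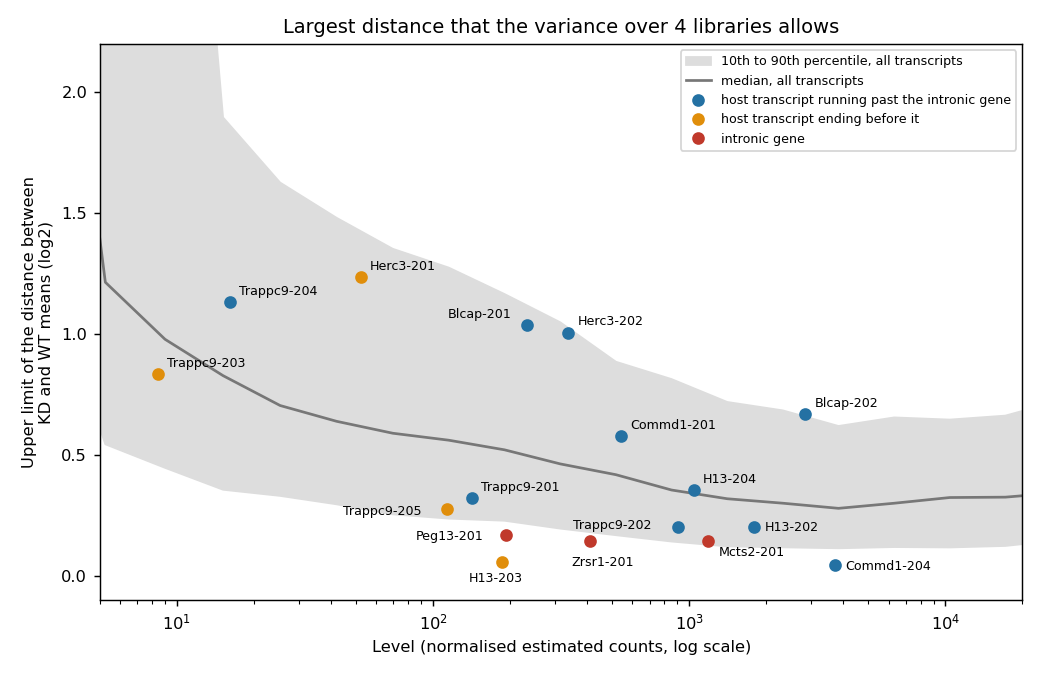
Upper limit of the distance between KD and WT means (log2) against the level of each member transcript (normalised estimated counts, log axis), with the median and the 10th to 90th percentile range of all transcripts in grey. H13-203 (0.058), Commd1-204 (0.047), Zrsr1-201 (0.15) and Peg13-201 (0.17) lie below the grey range, Blcap-202 (0.67) lies just above it, and Mcts2-201 (0.14) lies within it.

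The X-linked parents were transcribed alongside their copies. *Mcts1* had a level of 1754 per kilobase, above the 1293 of *Mcts2*, and a limit of 0.36 on the log2 scale. *Zrsr2* had 1299 per kilobase over 2 transcripts, with limits of 0.35 and 0.36, against 90.9 for *Zrsr1*. *Denr*, which encodes the partner of MCTS1 on the ribosome, had 2797 per kilobase and a limit of 0.21.

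Of 10 genes that set, read or keep germline imprints, 9 were listed, and *Dppa3*, which protects imprints, was not. *Trim28*, the corepressor recruited by zinc finger proteins to imprinted control regions, was the highest of them at 3680 per kilobase, with a limit of 0.37 on the log2 scale. *Dnmt3b*, a de novo DNA methyltransferase, was the lowest at 149.7 per kilobase. *Zfp57*, which binds the methylated hexamer TGCCGC of control regions, had 1945 per kilobase over 4 transcripts, with limits from 0.93 to 1.14. *Zfp445*, which acts beside it, had limits of 0.088 and 0.33 for its 2 transcripts. *Dnmt1*, the maintenance DNA methyltransferase, had limits between 0.14 and 0.98 over 3 transcripts.

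The promoters of the intronic genes lie in or near the control regions of their imprints, so their CpG content is described here. Windows from 250 bases before to 50 after the start came from RefSeq (GRCm38.p6) and were found for 8 of the 10 genes, with 2 windows for *Commd1*. The inner *Commd1* window (22972817 to 22973116) lies within *Zrsr1* and is not at the start of Commd1-201, which had no window. The windows of *Mcts2*, *Nap1l5* and *Zrsr1* are shown 5′ to 3′ on the strand of the gene, with each CpG in capitals, since these are the 3 retrogenes among the members.
Mcts2 (chr2:152686898-152687197, plus strand): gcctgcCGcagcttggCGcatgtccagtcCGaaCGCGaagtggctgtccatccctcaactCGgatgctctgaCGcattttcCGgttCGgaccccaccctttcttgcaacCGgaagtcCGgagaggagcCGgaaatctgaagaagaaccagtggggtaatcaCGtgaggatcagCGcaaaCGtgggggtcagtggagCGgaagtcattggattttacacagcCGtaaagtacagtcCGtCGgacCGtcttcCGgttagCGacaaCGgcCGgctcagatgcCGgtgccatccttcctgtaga
Nap1l5 (chr6:58907077-58907376, minus strand): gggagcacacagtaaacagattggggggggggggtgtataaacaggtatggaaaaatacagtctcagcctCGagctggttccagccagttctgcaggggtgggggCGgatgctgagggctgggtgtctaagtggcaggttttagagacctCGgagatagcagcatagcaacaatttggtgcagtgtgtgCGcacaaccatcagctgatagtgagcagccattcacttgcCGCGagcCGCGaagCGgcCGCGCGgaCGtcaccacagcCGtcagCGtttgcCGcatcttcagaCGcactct
Zrsr1 (chr11:22971755-22972054, plus strand): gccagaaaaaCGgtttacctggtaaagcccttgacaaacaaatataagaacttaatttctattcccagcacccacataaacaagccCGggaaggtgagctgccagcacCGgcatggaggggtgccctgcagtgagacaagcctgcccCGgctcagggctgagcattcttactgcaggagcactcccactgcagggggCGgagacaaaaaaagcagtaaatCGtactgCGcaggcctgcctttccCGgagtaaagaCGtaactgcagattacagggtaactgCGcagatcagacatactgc
The *Mcts2* window held 25 CpG, with an observed over expected ratio of 0.99, higher than 93.6% of the 32841 promoter windows. *Nap1l5* and *Nnat* each held 17 CpG (ratios of 0.70 and 0.69), and *Zrsr1* held 10 (0.47), against a median of 7 CpG and a ratio of 0.38 over all windows. The host windows ranged from *Herc3*, with 4 CpG and a ratio of 0.26, to *H13*, with 21 CpG and 0.84. The *Herc3* window lies at the start of Herc3-202 (58833700). The start of Herc3-201 (58831861) had no window, so its CpG content is not described.

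The letters TGCCGC were searched on both strands. Methylation, on which binding depends, was not measured in these files. The *Nap1l5* window held 2 matches, *Mcts2*, *Nnat* and the outer *Commd1* window held 1 each, and the remaining windows held none. Over all promoter windows 11.6% held at least 1 match and 1.53% held 2 or more. A match describes the letters in this window and is not a measured binding site.

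**Figure D5:**
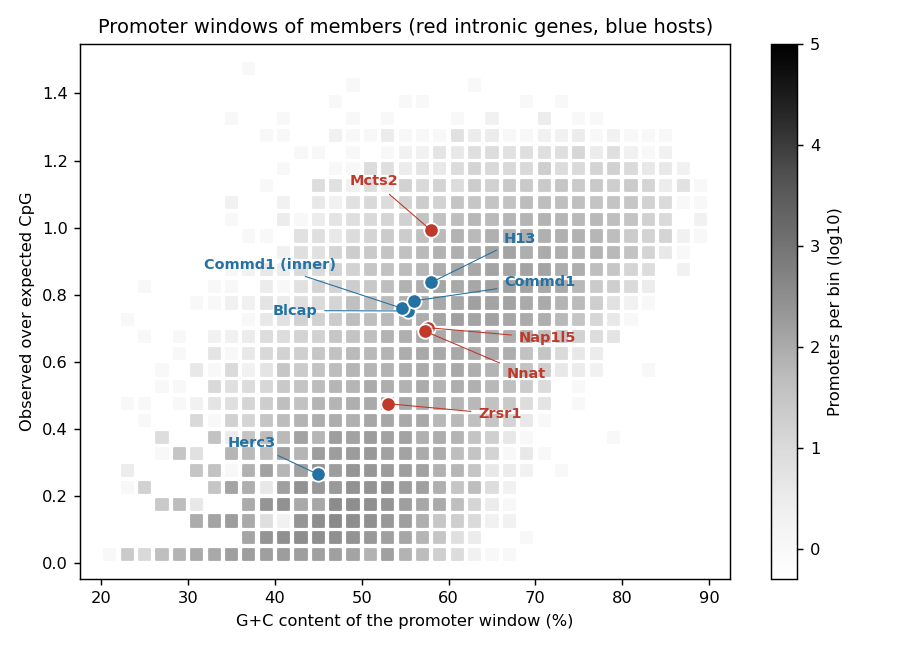
Observed over expected CpG against G+C content (%) of the promoter windows of members, over the density of all 32841 windows in grey (log10 scale of windows per bin). *Mcts2* has the highest CpG ratio of the members (0.99) and *Herc3* the lowest (0.26).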

How the data were processed

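RNA-seq of NIH/3T3 cells was available as a table of transcripts for 2 KD and 2 WT libraries, grouped by the *Setd2* condition in their labels. Adapters had been trimmed by the authors (BBDuk 38.22), transcript abundance had been estimated by pseudoalignment (Kallisto 0.44.0), and models had been fitted in Sleuth 0.30.0. The submitters' processing notes also name HISAT2 and bcl2fastq 2.17. The transcriptome index and the filter on low counts are not given in the sources used here.

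The authors' mean and variance over the 4 libraries and their variance from read assignment were deposited on the natural log scale, of normalised estimated counts plus 0.5. The deposited effects, standard errors, p-values and q-values of the authors' own comparison were not used, nor was the table of genes, which holds such p-values. The planned test on counts needed values of single libraries, so that no test was made and no direction of change is given. The number of columns of single-sample values left unmapped was 0.

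The level of a transcript was the exponential of the mean minus 0.5, and was divided by its length in kilobases in the GENCODE M21 annotation of GRCm38, in which 98.6% of transcripts were found by identifier. Levels were summed over the transcripts of a gene. The limit of the distance between group means was the square root of 3 times the variance, divided by the natural log of 2. A group mean lies within this distance divided by 2 of the overall mean, and a single library within 1.5 standard deviations. The limit of a ratio was the sum of both limits. The calculation was tested on simulated data. Transcripts of like level had a mean within 0.5 natural log units.

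Words of 31 bases were compared over all annotated transcripts for those particular to a gene. For those particular to a single transcript, they were compared over the transcripts of the table only. Coding sequences were aligned with Biopython 1.88, and values were handled in Python 3.11.15 with pandas 2.3.3, numpy 2.4.6 and matplotlib 3.10.9. Named genes were the members, *Setd2*, the X-linked parents, imprint genes, neighbours of *Peg13*, *Denr* and cell type markers. Gene models that share words were named after their values were seen. Members and lists were chosen with earlier results of these data known.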

Additional observations from a re-analysis of the deposited data

How the results depend on the processing

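No paired analysis was possible because the result comes from no test and no values of single libraries were used. For the same reason the planned count models with either normalisation, the filter on low counts, the omission of each library and the replicate block were not run. The 17 levels moved by less than their spread when 0.5 was not subtracted. Without division by length, the share of upstream ends was 6.12% in *H13* and 10.3% in *Trappc9*, and the ratios of intronic to host gene were 0.390 for *Mcts2*, 0.0962 for *Zrsr1* and 0.163 for *Peg13* (0.921, 0.0762 and 0.130 per kilobase). With 200 bases taken off each length, the share was 13.5% in *H13* and the ratio of *Mcts2* to *H13* was 1.04. With the highest transcript of each gene alone the ratios were 1.26, 0.111 and 0.183. *Mcts2* therefore lay above or below *H13* depending on how length was treated, while *Zrsr1* and *Peg13* lay below their hosts in each setting. A share was counted as moved when its natural log changed by more than the standard deviation of that transcript over the libraries. These counts therefore depend on that spread as well as on the setting. The share of single host transcripts moved for 7 of 14 without division by length and for 2 of 14 with 200 bases taken off, and for none of the 13 with a level of at least 10. The rank of the variance moved for 16 of 17 members when it was taken among transcripts of like level. Here moved means outside the binomial confidence interval of the rank among all transcripts, which is narrow, so small changes also count. The variance over 4 libraries limits a change but cannot show one, and read assignment weakens the values of *Blcap* and *Trappc9* isoforms with few bases of their own.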
